A study of Oryza sativa with 12 samples.

Results

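The response of the rice (Oryza sativa) cultivar IR64 to osmotic drought was described across all loci, from the 3 libraries labelled as drought and the 3 labelled as control, which are 6 of the 12 libraries of the series. Seedlings were grown in a culture room to an age of 21 days. The control group then received RO water for 6 h, and the drought group received 20% PEG 6000 for the same 6 h. The remaining 6 libraries are of a second cultivar, N22, under the same treatments. The submitters call IR64 sensitive and N22 tolerant. No organ is given in the labels, so the values are those of seedlings as harvested. The submitters describe the replicates as biological. Separate cultures are not mentioned, and the p-values below therefore measure the spread between these libraries only, which may be technical.

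Polyethylene glycol is a polymer that draws water away from the roots without entering cells to any great extent, so a seedling placed in it loses turgor. Plants answer a loss of water through the hormone abscisic acid (ABA), whose signal closes stomata and switches on genes for protective proteins. Growth, photosynthesis and sugar use are also known to be adjusted under water deficit. The LEA proteins, PP2C phosphatases and expansins are the genes most often named in such experiments, and they are given here only as anchors.

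Expression was measured by RNA sequencing and is given as FPKM, a fragment count divided by the length of the transcript and by the size of the library. Between 30625 and 32107 rows had a value in each IR64 library, and these values summed to 684525 to 721442. The depth in reads is unknown, so no counting interval is given. Changes are drought minus control in means of log2(FPKM + 1), with a standard error (SE), a scale that understates the change of weakly expressed genes. A locus is said to have risen or fallen where the adjusted p of limma, a linear model fitted to all loci, was at most 0.05 and the change was at least 1 either way. The 6 values of a gene are given as control libraries 1, 2 and 3 and then drought libraries 1, 2 and 3.

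Markers of organs were read first. None of 4 root markers was called, none was at 0 in every library, none had an unadjusted p below 0.05 (41.8% of all loci tested had one), and their summed FPKM was 403 to 452 in the controls and 357 to 412 under drought. The leaf marker that could be matched, RCA, which encodes Rubisco activase, measured 781, 1203 and 901 FPKM in the controls and 297, 266 and 185 under drought. Every drought library lay below every control, and RCA fell by 1.95 (SE 0.32, limma adjusted p = 0.00276). In bulk RNA of seedlings, fewer cells of a type and less RNA per cell cannot be told apart. The summed FPKM of 2 seed storage genes stayed between 3.31 and 4.3 in the 6 libraries. Both genes kept as internal references were lower under drought. ACT1, an actin gene, measured 311, 264 and 282 FPKM against 124, 104 and 156, a change of -1.17 (SE 0.2, limma adjusted p = 0.00331). GAPDH, which encodes a glycolytic enzyme, measured 674, 580 and 586 against 299, 198 and 349, a change of -1.15 (SE 0.27, adjusted p = 0.0111). The call on GAPDH was lost without drought library 2, where its change was -0.92.

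Of 24276 loci tested, 1055 rose (4.35%) and 976 fell (4.02%). On the adjusted p alone, 3431 loci were higher (14.1%) and 3841 lower (15.8%). The 3 drought values lay wholly above the 3 controls in 22.3% of all loci tested and wholly below them in 23.2%. Groups that do not overlap are therefore common in these libraries. The rises reached further than the falls. A change of at least 2 was reached by 257 of the loci that rose and 80 of those that fell, and a change of at least 4 by 32 and 0. The median change of the called loci was 1.44 among those that rose and -1.26 among those that fell. Over all loci tested the median change was 0. Loci that rose held 3.27% to 3.54% of the summed FPKM in the controls and 9.63% to 14.9% under drought. Those that fell held 10.7% to 12.1% in the controls and 3.48% to 4.4% under drought. As these loci were chosen by that contrast, both shares are a description.

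**Figure D1:**
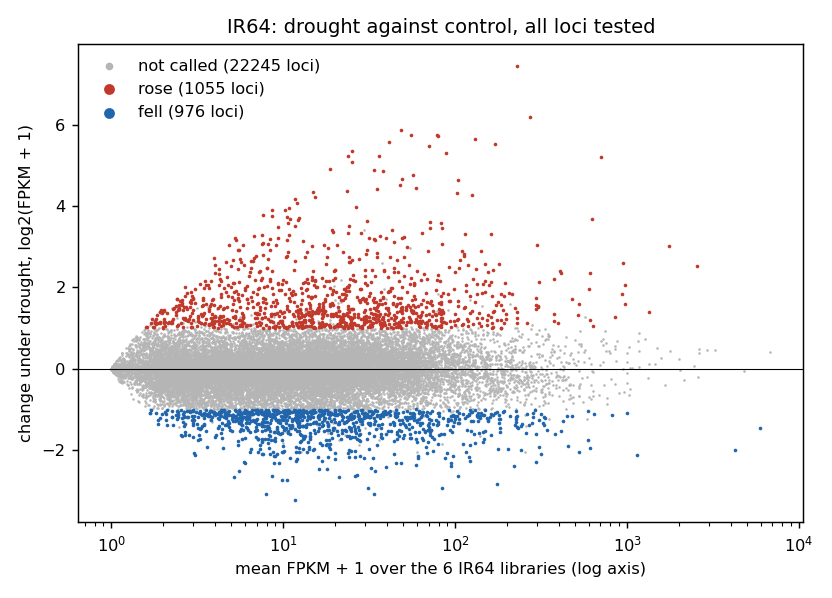
Mean FPKM + 1 over the 6 IR64 libraries (log axis) against the change under drought on the log2(FPKM + 1) scale, with each point a locus. Red points are the 1055 loci that rose and blue points the 976 that fell; the rises reach 7.45 and the falls -3.23.

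Calls were found in each of 5 classes of expression level and on each of the 12 chromosomes. Among loci with a mean FPKM under 1, 0.952% rose and 0.362% fell, a range in which the scale makes a change of 1 hard to reach. Among loci with a mean of at least 100, 9.41% rose and 9.08% fell. By chromosome the share that rose ran from 3.5% on chromosome 12 to 4.98% on chromosome 10, and the share that fell from 3.24% on chromosome 9 to 4.72% on chromosome 10. There were 18 runs of at least 3 neighbouring tested loci that were called in the same direction, 12 of them higher and 6 lower, which together held 56 loci. The longest runs held 4 loci and lay on chromosomes 6 and 11. Changes in the run on chromosome 6 were between 2.42 and 2.97, and those in the run on chromosome 11 between 4.38 and 7.45.

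The replicate numbers of the labels were used as pairs for description only, and the calls come from a fit without pairs. All 3 pairs changed in the called direction in 1054 of the loci that rose and 974 of those that fell. These loci were chosen by the same libraries, so this agreement is largely built in and is only a description. The pairs differed in size. The median change of the loci that rose was 1.59 in pair 1, 1.75 in pair 2 and 1.16 in pair 3, and that of the loci that fell was -1.26, -1.49 and -1.12. Counting each pair on its own, 1492 loci were higher by at least 1 in pair 1, 1721 in pair 2 and 982 in pair 3. The matching counts of lower loci were 1232, 1746 and 906. There were 542 loci higher by at least 1 in all 3 pairs and 465 lower in all 3. In 93 loci pairs 1 and 2 moved by at least 1 the same way while pair 3 was at 0 or moved the opposite way. Pair 2 stood alone in this sense in 24 loci and pair 1 in 22.

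**Figure D2:**
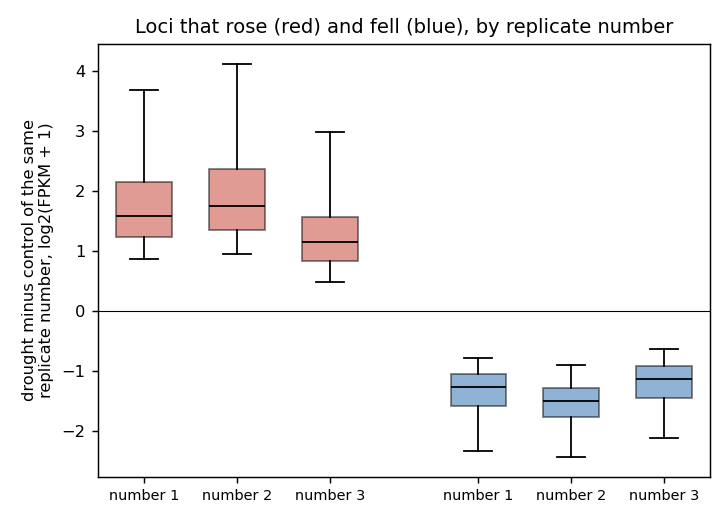
Change of the called loci within each replicate number, drought minus control of the same number on the log2(FPKM + 1) scale. Boxes span the quartiles with the median as a line and whiskers from the 5th to the 95th percentile; medians of the loci that rose are 1.59, 1.75 and 1.16, and those of the loci that fell are -1.26, -1.49 and -1.12.

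Genes were read in lists by role. The 33 lists with at least 3 named members held 269 tested rows, of which 37 rose and 28 fell. Over all loci tested, 4.35% rose and 4.02% fell, and on the adjusted p alone 14.1% were higher and 15.8% lower. The list counts below are to be read beside these shares, and a single call in a list of about 10 is near them. Calls were spread unevenly over the lists. The median change ran from -1.10 among type-A response regulators to 1.36 among genes of ABA synthesis and breakdown, apart from the anchors. Of the 65 called rows, 36 were called under every one of the 15 alternatives run. In 6 of the tested rows the filter was passed through N22 alone (APX5, GS1;3, HKT1;5, RR7, TPP3 and TPP7), so that their IR64 values are low. Where more than 2 members of a list are named, those beyond the naming rule were added after their values were seen.

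**Figure D3:**
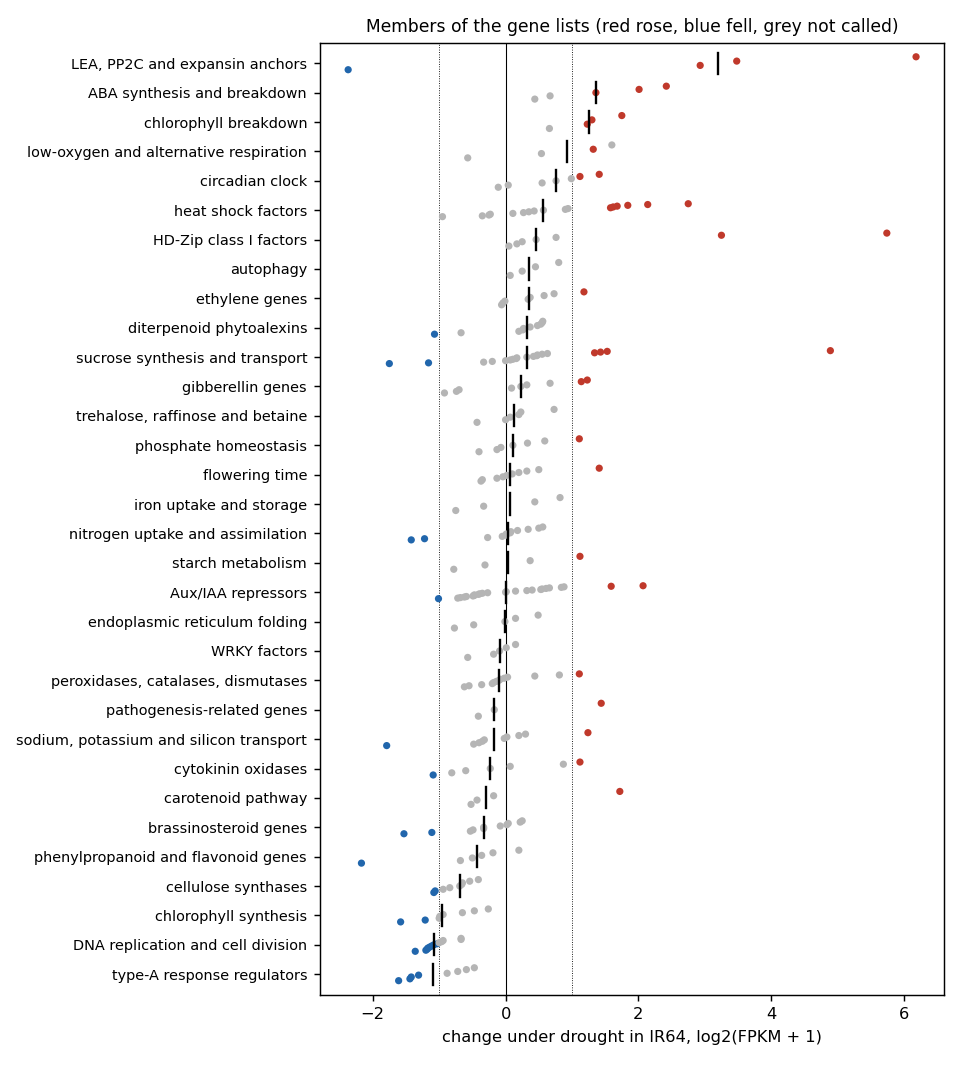
Change under drought in IR64 on the log2(FPKM + 1) scale for each member of 32 gene lists, ordered by the list median (black bar). Red members rose, blue members fell and grey members were not called; dotted lines mark changes of -1 and 1.

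Among genes of ABA synthesis and breakdown 3 of 5 members rose and 0 fell. On the breakdown side only ABA8ox2 of the 3 hydroxylases rose. ZEP1, a zeaxanthin epoxidase that makes a precursor of ABA, measured 10.3, 6.96 and 7.87 FPKM in the controls and 45.1, 41.2 and 25.6 under drought. ABA8ox2, an ABA hydroxylase that starts the breakdown of the hormone, measured 8.71, 8.26 and 7.96 against 51.3, 56.8 and 39.7. The lowest drought value of either gene was above its highest control. ABA8ox2 rose by 2.42 (SE 0.2, limma adjusted p = 0.000149) and ZEP1 by 2.01 (SE 0.26, adjusted p = 0.00108). The most abundant hydroxylase, ABA8ox1, measured 82.4, 83.2 and 132 against 168, 40.1 and 335, with overlapping groups. ABA8ox1 had a change of 0.44 (limma adjusted p = 0.626) and ABA8ox3 one of 0.67 (adjusted p = 0.0627), and neither was called. NCED3, a cleavage enzyme of the committed step, measured 3.68, 7.5 and 6.01 against 15.3, 28.6 and 8.79. Its groups lay close together at drought library 3. NCED3 rose by 1.36 (SE 0.41, limma adjusted p = 0.0303), and its call was lost without control library 1 (adjusted p = 0.107), control library 3 (0.0646), drought library 1 (0.0702) or drought library 2 (0.105), in the 6 IR64 libraries alone (0.0557) and with no filter on low values (0.0587). Upstream, 1 of 4 carotenoid genes rose and 0 fell, and the other 3 had changes below 0, with a median of -0.30 over the list. PSY3, a phytoene synthase at the entry of the pathway, lies in a row that names other loci too and measured 11.4, 11.7 and 16.3 FPKM against 48.2, 48.3 and 39.1, a rise of 1.72 (SE 0.21, limma adjusted p = 0.000888). The other phytoene synthases had changes of -0.43 for PSY1 (adjusted p = 0.0634) and -0.52 for PSY2 (adjusted p = 0.0722), and neither was called.

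In the HD-Zip class I family of transcription factors, 2 of 7 members rose, all 7 had changes above 0 and the median was 0.46. HOX24 was nearly silent in the controls at 0.268, 0.774 and 0.696 FPKM and reached 98.7, 198 and 28.2 under drought. HOX22 measured 4.95, 9.3 and 11.1 against 84.5, 135 and 54. In both genes the groups were far apart, with drought library 2 highest and drought library 3 lowest. HOX24 rose by 5.74 (SE 0.66, limma adjusted p = 0.000585) and HOX22 by 3.25 (SE 0.44, adjusted p = 0.00119). Of the 4 anchors 3 rose and 1 fell. OsLEA3 measured 5.04, 6.86 and 4.18 FPKM against 546, 863 and 198, PP2C51 measured 0.458, 0.381 and 0.268 against 17.9, 24.6 and 6.31, and PP2C68 measured 4.02, 5.16 and 5.52 against 48.2, 98.3 and 17.1. These 3 had the order of drought libraries seen in HOX24. The expansin EXPA2 measured 113, 97.5 and 80.3 against 22.8, 28.1 and 8.46, a change of -2.37. Among 5 WRKY factors limma called 0, and 1 had an unadjusted p below 0.05, as did 41.8% of all loci tested. WRKY71, the most abundant, measured 189, 225 and 292 against 201, 157 and 400, with overlapping groups.

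Heat shock factors are transcription factors named for switching on chaperone genes. Of 17 members 6 rose and 0 fell, with a median change of 0.57, and on the adjusted p alone 9 were higher and 2 lower. The 6 were 3 of class C (HSFC2b, HSFC2a, HSFC1b), 2 of class B (HSFB2c, HSFB2b) and HSFA3 of class A. HSFC2b measured 7.37, 8.14 and 7.81 FPKM in the controls and 58.5, 82.3 and 40.6 under drought. HSFC2a measured 1.41, 2.75 and 2.88 against 19.2, 25.7 and 4.52. Drought library 3 was the lowest of the drought group in both genes, and it stood near the controls only in HSFC2a. HSFC2b rose by 2.75 (SE 0.3, limma adjusted p = 0.000461) and HSFC2a by 2.14 (SE 0.55, adjusted p = 0.0157). HSFA3 showed another order, with 4.48, 5.96 and 8.33 FPKM against 19.1, 17.3 and 24.8, so that drought library 3 was its highest. It rose by 1.58 (SE 0.21, limma adjusted p = 0.00119). HSFA4d was lower in drought libraries 1 and 2 (5.97 and 5.25 FPKM) than in drought library 3 (13.6) or the controls (14.7 to 16.6), and its change of -0.95 (adjusted p = 0.0333) became -1.33 without drought library 3, past the threshold. Without drought library 3 the calls of HSFA2a (1.23) and HSFA2c (1.13) were gained as well. HSFC2a was not called without control library 1 (adjusted p = 0.0583), drought library 1 (0.0579) or drought library 2 (0.0595), nor HSFB2b without drought library 1 (0.0519) or drought library 2 (0.0548).

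**Figure D4:**
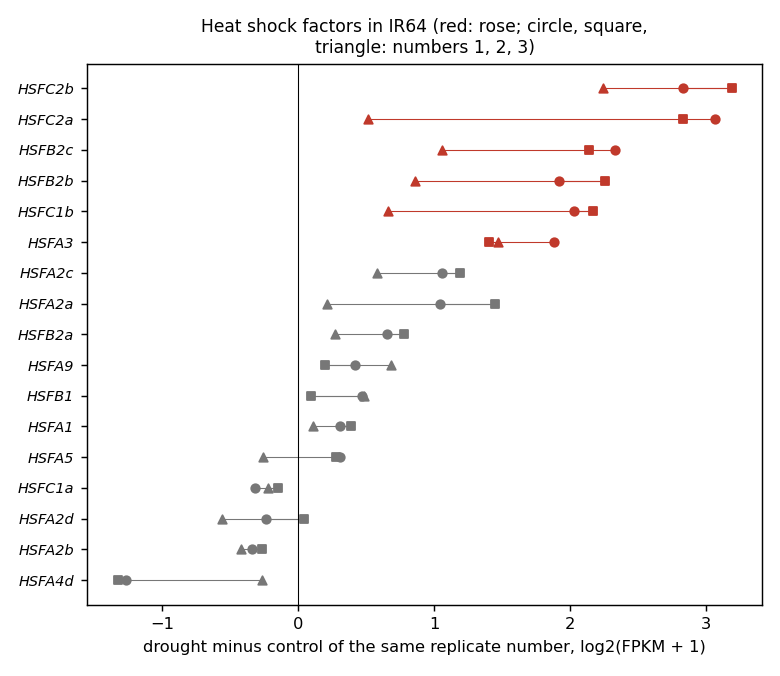
Change of the 17 tested heat shock factors within each replicate number, drought minus control on the log2(FPKM + 1) scale. The 6 members in red rose; HSFC2b lies above 2 in each pair, while HSFC2a lies near 3 in 2 pairs and at 0.51 in pair 3.

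Among genes of sucrose, 3 transporters rose, and sucrose synthases changed in both directions. Of 19 members of the sucrose list 4 rose and 2 fell, with a median change of 0.32. SWEET15, a sugar exporter of the plasma membrane, measured 1.01, 1.01 and 0.854 FPKM in the controls and 71.8, 93.9 and 27.5 under drought. The groups did not overlap and drought library 3 was again lowest. SWEET15 rose by 4.89 (SE 0.46, limma adjusted p = 0.000251). SUT1, a sucrose importer of the phloem, measured 29.4, 30.9 and 25.9 against 76, 98.9 and 65.9, a rise of 1.43 (SE 0.23, limma adjusted p = 0.0024). Sucrose synthases split sucrose for use in walls and respiration, and 2 of 6 measured members were called, in opposite directions. SUS1 measured 920, 911 and 911 FPKM in the controls and 255, 238 and 327 under drought, while SUS4 measured 61.2, 51.4 and 42.4 against 144, 197 and 118. The controls of SUS1 were nearly equal and every drought library was below them. SUS1 fell by 1.75 (SE 0.29, limma adjusted p = 0.00288) and SUS4 rose by 1.53 (SE 0.28, adjusted p = 0.00415). SUS2, not called, measured 197, 184 and 188 FPKM against 248, 239 and 224. SUS1 was thus several times SUS2 in the controls and within the range of 224 to 327 FPKM with it under drought. The other 2 calls of the list each depended on single libraries. SWEET13, another exporter, measured 14.4, 19.9 and 18.1 against 51.9, 69 and 26.1 and was not called without control library 1 (adjusted p = 0.0752), control library 3 (0.0537), drought library 1 (0.07) or drought library 2 (0.0832). GIF1, a cell wall invertase, measured 8.71, 12.4 and 12.5 against 3.93, 3.64 and 5.81 and was not called without control library 2 (adjusted p = 0.0532), control library 3 (0.0533), drought library 1 (0.0517) or drought library 2 (0.0555).

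**Figure D5:**
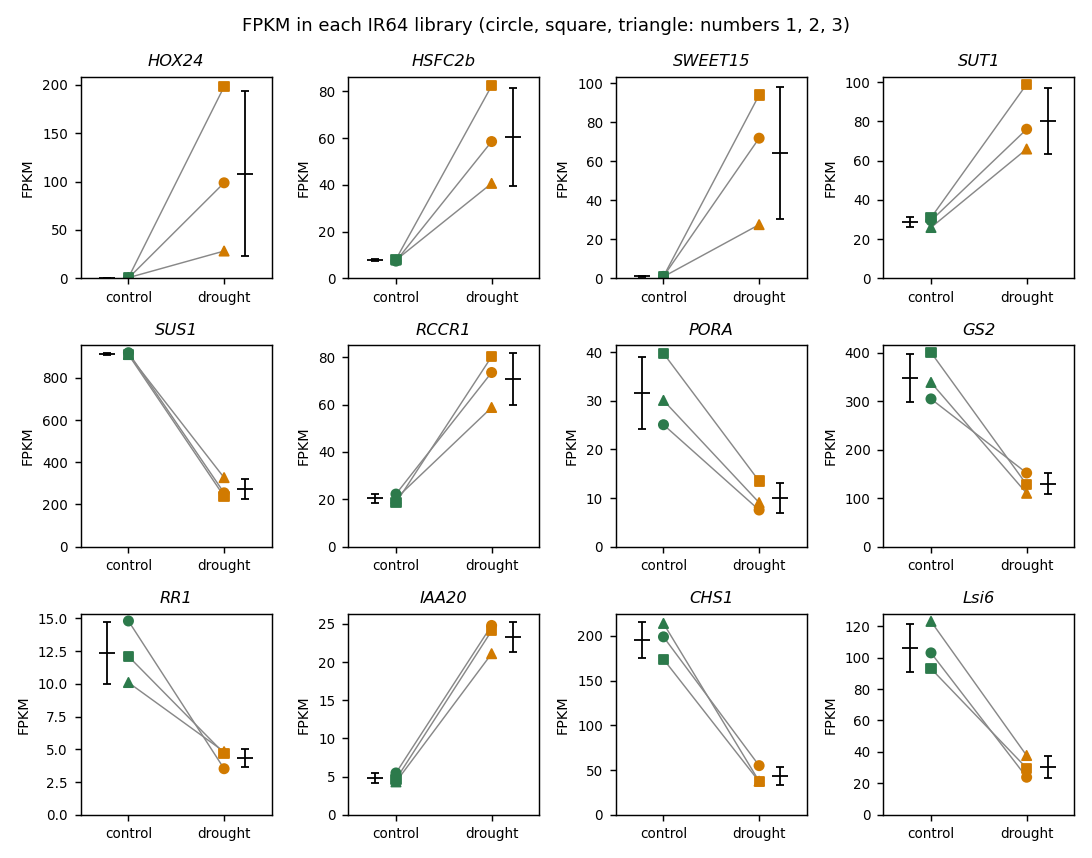
FPKM of 12 genes in each IR64 library, with lines joining libraries of the same replicate number and bars giving the mean ± SD of each group (n = 3). In each panel the 3 drought values lie wholly on one side of the 3 controls, as in 22.3% (above) and 23.2% (below) of all loci tested. SWEET15 and HOX24 start near 1 FPKM or below, and SUS1 falls from 911 to 920 down to 238 to 327.

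Genes of chlorophyll synthesis and breakdown were read as separate lists, and the difference between the lists was not tested. Of 8 synthesis genes 0 rose and 2 fell, all 8 changes were below 0 and the median was -0.96, and 6 of the 8 were lower on the adjusted p alone. Of 4 breakdown genes 3 rose and 0 fell, with a median of 1.26, and all 4 were higher on the adjusted p alone. PORA, which reduces protochlorophyllide in the light, measured 25.1, 39.8 and 30.1 FPKM against 7.53, 13.5 and 9.05. CHLI, a subunit of magnesium chelatase, measured 45.7, 53.7 and 50.5 against 20.3, 18.7 and 24.6. Both genes had each drought library below each control. PORA fell by 1.58 (SE 0.34, limma adjusted p = 0.00761) and CHLI by 1.21 (SE 0.26, adjusted p = 0.00733). Another subunit of the chelatase, CHLD, and chlorophyll synthase, CHLG, lay at the threshold with changes of -0.99 and -1.0. The number of synthesis genes called therefore became 4 without control library 1 or control library 3, with a pseudocount of 0.1 or with quantile scaling, and 5 without drought library 1 or drought library 3.

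On the breakdown side, RCCR1, which reduces the red catabolite left when the chlorophyll ring is opened, measured 22.2, 18.5 and 20.3 FPKM in the controls and 73.6, 80.3 and 58.8 under drought. SGR, the STAY-GREEN protein that removes magnesium, measured 38.4, 41.1 and 43.3 against 96.7, 130 and 84.9. NYC1, a reductase of chlorophyll b, measured 64.3, 58.2 and 55.4 against 162, 180 and 93.7. The groups were apart in all 3 genes, as in this direction in 22.3% of all loci tested. Drought library 3 was the lowest of its group each time. RCCR1 rose by 1.75 (SE 0.16, limma adjusted p = 0.000251), SGR by 1.3 (SE 0.25, adjusted p = 0.00473) and NYC1 by 1.23 (SE 0.27, adjusted p = 0.00877). Beside these values stand those of RCA above, the leaf marker, and the part of organ composition in them was not tested.

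The chloroplast enzymes GS2 and FdGOGAT of nitrogen assimilation were lower, and the rest of the nitrogen list as kept was not called. Other members written into the list, among them NIR, NADHGOGAT1 and NADHGOGAT2, found no symbol match and were not read. Of 12 members 2 fell and 0 rose, and the median change was 0.04. GS2, the chloroplast glutamine synthetase, measured 305, 401 and 339 FPKM against 152, 128 and 110. FdGOGAT, the ferredoxin-dependent glutamate synthase that works with it, measured 227, 296 and 240 against 114, 108 and 102. Control library 2 was highest in both genes, and no drought value reached a control. GS2 fell by 1.42 (SE 0.21, limma adjusted p = 0.00172) and FdGOGAT by 1.22 (SE 0.16, adjusted p = 0.00111).

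Other hormones were read list by list. Type-A response regulators, which are induced by cytokinin and damp its signal, had changes below 0 in all 8 tested members, with a median of -1.10, and 4 fell while 0 rose. RR1 measured 14.8, 12.1 and 10.1 FPKM against 3.52, 4.69 and 4.82, and RR10 measured 114, 154 and 100 against 28.9, 37.9 and 53.2. No drought value of either gene reached a control. RR1 fell by 1.31 (SE 0.28, limma adjusted p = 0.00748) and kept its call under every alternative. RR10 fell by 1.61 (SE 0.45, adjusted p = 0.0231). RR9 and RR10 are close copies of each other, so the split of reads between them is uncertain. RR9 (91.8, 124 and 87.7 against 25.9, 35.8 and 50.6) and RR2 (37.1, 44.4 and 34.1 against 9.57, 19.6 and 13.5) fell as well. The count of 4 became 2 without control library 1 and 1 without control library 2 or drought library 1. Without drought library 2, RR10 (adjusted p = 0.0618) and RR9 (0.0743) were not called while RR4 was (-1.04). RR9 was not called without control library 3 (adjusted p = 0.0582) or with no filter (0.058) either.

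Cytokinin oxidases, which degrade the hormone, gave 1 rise and 1 fall among 7. CKX11 measured 20.8, 23.6 and 18.9 FPKM against 51, 74 and 27.3, and CKX5 measured 12.7, 18.7 and 21.7 against 6.04, 8.02 and 8.91. Both calls depended on single libraries. CKX11 was not called without control library 1 (adjusted p = 0.0867), 2 (0.0658) or 3 (0.0987) or drought library 1 (0.0961) or 2 (0.127), in the 6 IR64 libraries alone (0.0515) or with no filter (0.0675), and CKX5 not without control library 2 (0.0596) or 3 (0.0703) or drought library 1 (0.0696).

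Aux/IAA repressors of the auxin response moved both ways, with 2 of 25 risen, 1 fallen and a median of 0.00. These counts are near the shares over all loci tested, 4.35% risen and 4.02% fallen. On the adjusted p alone 6 were higher and 10 lower. IAA20 measured 5.48, 4.64 and 4.31 FPKM against 24.8, 24.1 and 21.1, and IAA9 measured 2.68, 2.52 and 2.26 against 11.8, 9.39 and 7.66. The drought values of IAA20 were close together and far above the controls. IAA20 rose by 2.07 (SE 0.21, limma adjusted p = 0.000305) and IAA9 by 1.59 (SE 0.26, adjusted p = 0.00273). IAA14 (15.6, 20.4 and 20.4 against 9.43, 5.71 and 12.2) was at the threshold with -1.01 and was not called without control library 2 (-0.95), control library 3 (-0.95) or drought library 2 (-0.74).

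Among 9 gibberellin genes 2 rose and 0 fell, with a median of 0.23, while on the adjusted p alone 3 were higher and 3 lower. GID1, the gibberellin receptor, measured 64, 69.8 and 72.7 FPKM against 149, 178 and 163, and SD1, a gibberellin oxidase of the synthesis pathway, measured 1.44, 1.25 and 0.363 against 2.21, 4.58 and 3.49. GID1 changed by a like amount in each pair, 1.20, 1.34 and 1.15, and rose by 1.23 (SE 0.13, limma adjusted p = 0.000442). The 3 lower on the adjusted p alone were KAO (change -0.92, adjusted p = 0.00305) and CPS1 (-0.70, 0.00559), of the synthesis pathway, and GID2 (-0.74, 0.00761), which passes on the signal of the receptor. KAO was called lower with a pseudocount of 0.1 (-1.14). The rise of SD1, 1.14, was 0.88 without control library 3 and 0.96 without drought library 2. Of 11 brassinosteroid genes 0 rose and 2 fell. BU1, a small helix-loop-helix protein induced by brassinosteroids, measured 7.64, 9.84 and 9.45 against 4.6, 1.76 and 1.66, and fell by 1.53 (SE 0.34, limma adjusted p = 0.00898). DWARF4, a hydroxylase of brassinosteroid synthesis, measured 21.8, 21.6 and 29.4 against 12.2, 8.61 and 11.4, and its change of -1.11 became -0.97 without control library 3 or drought library 2. In the ethylene list 1 of 8 rose, ACO1, the oxidase of the last step of ethylene synthesis. ACO1 measured 14, 20.1 and 18.5 against 46.1, 40.6 and 35.4, a rise of 1.18 (SE 0.14, limma adjusted p = 0.000822).

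All 9 cellulose synthases had changes below 0, with a median of -0.69, and 2 fell, while 7 were lower on the adjusted p alone. CESA4, of secondary walls, measured 58.4, 58.7 and 70.4 FPKM against 27.2, 25.8 and 34.3, and CESA1, of primary walls, measured 183, 151 and 171 against 79.4, 63.4 and 102. Each drought value was below each control, and both changes, -1.08 and -1.06, were near the threshold. The count of 2 was 1 without control library 1, control library 3 or drought library 2, and 4 without drought library 3. CESA6 shows the last of these, with 64.2, 58.5 and 72.1 FPKM in the controls, 30 and 22.8 in drought libraries 1 and 2 and 90.5 in drought library 3. Of 6 phenylpropanoid and flavonoid genes 0 rose and 1 fell. CHS1, the chalcone synthase that opens the flavonoid branch, measured 199, 174 and 214 FPKM against 55, 37.2 and 37.6, and it fell by 2.17 (SE 0.37, limma adjusted p = 0.0029).

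All 13 genes of DNA replication and cell division had changes below 0, with a median of -1.08, and 8 fell. PCNA, the sliding clamp of DNA polymerase, measured 50.7, 41.5 and 39.1 FPKM against 16.3, 10.9 and 24.5, and fell by 1.36 (SE 0.39, limma adjusted p = 0.0242). CYCB2;2, a mitotic cyclin, measured 12.7, 12.8 and 12.2 against 6.01, 3.35 and 5.8. Their groups did not overlap, and on the adjusted p alone all 13 were lower. The calls nonetheless depended on the libraries used, since the count was 0 without control library 1, control library 2 or drought library 2, 1 without control library 3, 3 without drought library 1 and 4 with no filter on low values.

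Among 10 genes of sodium, potassium and silicon transport 1 rose and 1 fell. Lsi6, which unloads silicon from the xylem in leaves, measured 103, 93 and 123 FPKM against 23.9, 29.7 and 37.7. The root uptake channel Lsi1 measured 321, 276 and 316 against 244, 268 and 221, and the root exporter Lsi2 measured 114, 116 and 107 against 97.8, 131 and 116. Lsi6 and Lsi1 each had every drought value below every control, as in 23.2% of all loci tested, whereas the values of Lsi2 overlapped. Lsi6 fell by 1.79 (SE 0.35, limma adjusted p = 0.00494), Lsi1 had a change of -0.32 (SE 0.16, adjusted p = 0.16) and Lsi2 a change of 0.02 (SE 0.17, adjusted p = 0.958). The difference between these genes was not tested. HKT1;1, a sodium transporter, measured 1.11, 4.53 and 5.53 against 7.91, 12.5 and 7.46. Its rise of 1.24 (limma adjusted p = 0.0278) was 0.74 without control library 1. HKT1;1 was not called without drought library 1 (adjusted p = 0.0538) or drought library 2 (0.0984), nor with no filter (0.0548). In the 6 IR64 libraries alone it was not called either, both without the replicate number as a block (0.0812) and with it (0.0515). In the phosphate list 1 of 7 rose, the transporter PT4, with 1.25, 1.57 and 0.994 against 6.46, 4.44 and 1.87. It was not called without control library 3 (adjusted p = 0.0508) or without drought library 1 (change 0.80), nor in the 6 IR64 libraries alone (adjusted p = 0.0552).

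Fermentation genes departed from the order of libraries seen above, and 1 of 4 rows of the low-oxygen list rose. The row that holds the alcohol dehydrogenases ADH1 and ADH2 with other loci measured 344, 228 and 295 FPKM in the controls and 832, 482 and 905 under drought, a rise of 1.32 (SE 0.28, limma adjusted p = 0.00683). PDC2, a pyruvate decarboxylase acting just before them, measured 112, 67.2 and 82.4 against 455, 86.7 and 445. Drought library 2, the highest of its group for HOX24 and SWEET15, was the lowest here and overlapped the controls. The change of PDC2 was 1.60 (SE 0.57) and did not pass with an adjusted p of 0.0577. With the replicate number as a block the adjusted p was 0.00832, and without drought library 2 the change was 2.39 (adjusted p = 0.00416). ABA8ox1, a further ABA hydroxylase, likewise gained a call without drought library 2 (change 1.28 in place of 0.44).

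Further lists gave 1 or 2 calls each, where 4.35% of all loci tested rose and 4.02% fell. Of 7 clock genes 2 rose. PRR95, a pseudo-response regulator of the clock, measured 7.44, 7.07 and 8.42 FPKM against 31.6, 18.6 and 17.8, a rise of 1.41 (SE 0.21, limma adjusted p = 0.00173). GI (GIGANTEA) measured 191, 103 and 144 against 349, 281 and 299, and its change of 1.12 was 0.89 without control library 2. SE5, a heme oxygenase that makes the phytochrome chromophore, was the 1 of 10 flowering genes that rose, with 38.4, 46.6 and 44.1 against 119, 147 and 88.2 and a change of 1.41 (SE 0.23, adjusted p = 0.00239). CATB, a catalase, was the 1 of 13 peroxidase, catalase and dismutase genes that rose, with 169, 160 and 163 against 347, 418 and 310, and its change of 1.11 was at the threshold without drought library 2 (1.00, not called). CHT1, a chitinase, was the 1 of 3 pathogenesis-related genes that rose, with 25.3, 25.6 and 21.6 against 39.7, 96.9 and 77.5 and a change of 1.44 (SE 0.32, limma adjusted p = 0.00883). The starch synthase SSI was the 1 of 4 starch genes that rose (7.14, 4.34 and 3.42 against 13.4, 12.2 and 9.28), and its change of 1.12 was 0.92 without control library 3. The median of the starch list was 0.03. Its member AGPS2 was lower on the adjusted p alone (change -0.78, limma adjusted p = 0.00152). KSL7, a diterpene synthase, was the 1 of 10 phytoalexin genes that fell (62, 60.2 and 75.1 against 34.9, 21.2 and 38.6), and its change of -1.07 was -0.97 without control library 3 and -0.82 without drought library 2. In that list 8 of 10 members had changes above 0, with a median of 0.32, and none of the 8 was called.

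Calls were absent in 4 more lists. By limma 0 of 6 genes for trehalose and betaine and 0 of 4 for iron were called. The counts were 0 of 5 for folding in the endoplasmic reticulum and 0 of 4 for autophagy. In that order, 1, 0, 3 and 2 members had an unadjusted p below 0.05, against 41.8% of all loci tested. TPP7, one of the 6 for trehalose and betaine, was listed at 0 in every IR64 library and could not have been called. The raffinose members written into that list, GolS1 and GolS2, found no symbol match and were dropped, so no raffinose gene was read. BADH2, a betaine aldehyde dehydrogenase, measured 74.1, 65.8 and 69.6 FPKM against 74.3, 68.7 and 77.3, with overlapping groups. BADH1, of the same kind, measured 25.6, 23.9 and 23.3 against 42.2, 40.3 and 39.9, with groups apart. The change of BADH1, 0.73 (SE 0.09, limma adjusted p = 0.00107), was under the threshold of 1. ATG8a, an autophagy protein that coats the growing membrane, measured 252, 253 and 262 against 471, 512 and 366. Its groups did not overlap and its change of 0.80 (SE 0.19, limma adjusted p = 0.0109) was under the threshold of 1.

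Outside the list members that were kept, the 2 largest rises and falls were taken by rule. LOC_Os11g26790, on chromosome 11, had been written into the LEA anchor list but was dropped from it because its symbol found no match. It measured 1.86, 1.8 and 0.339 FPKM in the controls and 455, 730 and 172 under drought. Its neighbour LOC_Os11g26780 measured 0.306, 0.305 and 0.177 against 85, 172 and 26.6. Both lie in the run of 4 loci on chromosome 11, and both had the order of libraries seen in HOX24. The rises were 7.45 (SE 0.65, limma adjusted p = 0.000178) and 5.88 (SE 0.63, adjusted p = 0.000425). At the other end, LOC_Os12g06660 measured 14.1, 22.4 and 24.5 against 1.04, 1.14 and 1.47, and fell by 3.23 (SE 0.51, limma adjusted p = 0.00224). LOC_Os07g48050 measured 13.1, 13.8 and 12.5 against 0.325, 0.361 and 1.55, and fell by 3.09 (SE 0.28, adjusted p = 0.000211). The drought values of both loci were a small part of the controls.

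Some loci were listed in one group alone. There were 105 loci listed at 0 in the 3 controls and above 0 in the 3 drought libraries, with a mean under drought of at most 21.6 FPKM. In the opposite direction there were 99 loci, with a mean in the controls of at most 0.686 FPKM. No test is drawn from either set, since each was chosen by that contrast. Most of both sets were barely expressed, with a median of 0.109 and 0.0627 FPKM in the group that listed them. Over all 1503 tested rows without a locus name, 3.59% rose and 1.53% fell, while rows of a single named locus gave 4.38% and 4.17%.

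The drought response of IR64 was set against that of N22 only through the difference of the responses, which passed the thresholds at 60 loci (0.247%). Of these, 31 were among the loci called in IR64, and 27 of the 31 changed more in IR64. The 31 were chosen partly by the size of their change in IR64, so that direction is largely built in. The direction of the other called differences is not given here. The count of 60 was 23 without control library 3 and 93 without drought library 3 of IR64. In the 33 lists 1 member had a called difference, GS1;3, a cytosolic glutamine synthetase, which passed the filter through N22 alone. GS1;3 measured 0.996, 0.549 and 0.713 FPKM in the IR64 controls and 0.752, 0.537 and 1.01 under drought, with overlapping groups. Its values in N22 were 1.13, 1.09 and 0.529 in the controls and 83.4, 101 and 35.3 under drought.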

How the data were processed

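The deposited values are FPKM for each transcript row, computed by the authors with Cufflinks 2.2.1 after TopHat 2.1.1 alignment of reads filtered with NGSQC Toolkit 2.3.3 to the RGAP 7.0 rice genome (bowtie 2.3.3.0), per the submitters' processing notes and design text. The design text also names missForest imputation, and whether the deposited values hold imputed ones is not given in the sources used here. Depth in reads is unknown, so no precision from counting is given.

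Rows of the same name were summed (39718 rows to 39093 loci), and a locus not listed in a library counted as 0, which can be a failed estimate. The 24276 loci that reached an FPKM of 1 in 2 replicates of any group were tested. In R 4.3.3 (data.table version 1.17.8), limma 3.58.1 was fitted to log2(FPKM + 1) with 4 group means, all 12 libraries and its trend option, and two-sided p-values were adjusted by Benjamini-Hochberg over these loci. Calls follow the design text (adjusted p up to 0.05, change of 1 or more either way). Lists and plots were made with Python 3.11.15, pandas 2.3.3 and matplotlib 3.10.9. On simulated data, 45 of 50 loci changed by 1.5, 48 of 50 by 2, 48 of 50 by 3 and 46 of 50 by -2 were recovered, with 1 false call among the unchanged loci. Changes were placed only in loci of higher expression in the IR64 controls, and noise was drawn independently for each library. The recovery of weakly expressed loci and the effect of paired libraries were therefore not covered.

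Members and lists were chosen with earlier results of these data known. Pairs of gene symbol and locus were written from general knowledge and matched through RefSeq gene symbols of another assembly (ASM3414082v1). Of 458 pairs of symbol and locus in 39 lists, 296 were kept, namely those whose symbol was found there on the same chromosome and in the same order. Of the rest, 151 had no entry, 8 lay on another chromosome and 3 were out of order, and these were dropped, a stricter rule than first planned, chosen with the data at hand. Lists with at least 3 kept pairs (33) were used. For naming, each list gave its 2 called members of largest change or, with no call, its most abundant one, and outside the lists the 2 largest rises and falls among loci whose groups were apart. The rule allowed up to 5 named loci for the difference between cultivars. Other named members were added after their values were seen.

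Control and drought libraries of the same number deviated from their group means together (correlation over loci 0.313, 0.405 and 0.261). For different numbers the values were -0.27 to -0.0578. Deviations sum to 0 within a group, so positive values for the same number push these below 0, and they are not separate evidence. Because of the positive values, the numbers, taken from the labels, were read as pairs in the descriptions. The main fit, which gave the calls, had no replicate block, and a replicate block was an alternative. Other alternatives were a pseudocount of 0.1, no filter, an FPKM minimum of 5, no trend, scaling by quantiles or by median of ratios, the 6 IR64 libraries alone with and without the block, and leaving out each IR64 library.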

Additional observations from a re-analysis of the deposited data

Results flagged for a closer look

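GS1;3, a cytosolic glutamine synthetase, was flagged because its drought response differed between the cultivars by a test of the difference itself. The change was 0.01 in IR64 and 5.16 in N22, and the difference, N22 minus IR64, was 5.15 on the log2(FPKM + 1) scale (SE 0.45, limma adjusted p = 0.00117). All 3 drought libraries of N22 lay above every other library, and the 3 drought libraries of IR64 overlapped their controls. GS1;3 passed the filter on low values through N22 alone, and its highest IR64 value was 1.01 FPKM. It was thus tested only because of the group in which it is high.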

How the results depend on the processing

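With the replicate block, the number of loci that rose was 1112 and the number that fell 1020, and in the 6 IR64 libraries alone with the pairing they were 1064 and 1012. Among list members the block in the 12 libraries changed 1 call, that of PDC2, which was gained. Leaving out each IR64 library gave 847 to 1384 loci that rose, 762 to 1292 that fell and 23 to 93 with a called difference between cultivars. The other alternatives gave 965 to 1392 and 898 to 1443 loci, the upper values with a pseudocount of 0.1. Without drought library 2, 1447 of the 2031 called loci were called again. Of 912 values of the 61 genes and loci given by the naming rule, 858 kept direction and side of the threshold. In 54 the call was lost and 0 reversed. Members named beyond the rule are not among these values. Some of them lost a call, as NCED3 did, and others gained one, as PDC2 did. Of 990 list counts 61 moved by more than 1.5 times. FPKM values carry no depth, so weakly expressed loci could not be weighed by their reads.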
